A study of Mus musculus with 13 samples.

Results

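The genes described here are 35 genes of the synapse: proteins of the synaptic vesicle, of the machinery that docks, fuses and recycles it, and of the postsynaptic density that faces it. They were chosen by symbol, and all 35 were found among the 23238 symbols of a mouse hippocampus table and the 24542 symbols of a table of cultured glia, with the counts of a symbol's lines added. The hippocampus table holds 7 libraries from 3xTg mice, a strain that carries familial Alzheimer disease transgenes. In 3 of them the adeno-associated virus AAV9 was a control virus, and in 4 it delivered Nurr1 and Foxa2 (N+F), a nuclear receptor and a forkhead transcription factor. All 7, controls included, have amyloid beta listed as their treatment, and neither mouse age nor the viral promoter is stated by the labels. The culture table holds 1 library per group from glia of ICR mouse pups at postnatal day 1, from hippocampus and from cortex. In each region 1 library had control lentivirus and no amyloid beta (untreated), 1 had control lentivirus with amyloid beta (amyloid beta control), and 1 had lentivirus with Nurr1 and Foxa2 and amyloid beta (N+F). The labels do not say whether the tissue libraries come from separate animals, so the p-values measure the spread between these libraries, and a culture difference has no replicate check.

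A presynaptic terminal stores transmitter in vesicles that are tethered near the active zone, primed, and fused with the membrane by SNARE proteins when calcium enters. The emptied membrane is then taken back by endocytosis. On the other side of an excitatory synapse, scaffold proteins of the postsynaptic density hold receptors in place and link them to calcium-dependent kinases. In the brain these genes are expressed mainly by neurons, while glia express widely used relatives of several of them, such as Snap23 in place of Snap25.

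Library totals ran from 10194437 to 25139406 counts in tissue and from 52189025 to 78273121 in culture. Foxa2 was at 0 counts in the 4 culture libraries without N+F and at 140 and 13.5 CPM (counts scaled to equal library totals) in the hippocampal and cortical N+F libraries. Nr4a2, which encodes Nurr1, was at 58.3 CPM untreated, 3.35 in the amyloid beta control and 488 with N+F in hippocampal glia. In cortical glia Nr4a2 was at 19.0, 5.14 and 36.9 CPM in the same order. In tissue, Foxa2 had 1 to 5 counts in the controls and 26, 5, 1 and 6 counts in N+F libraries 1 to 4. Nr4a2 did not pass the test in tissue (edgeR log2 fold change -0.22 ± 0.24 SE, adjusted p 0.872). Both untreated culture libraries, although labelled as glia, held neuronal RNA: the median of 8 neuron markers was 295 CPM in the hippocampal and 279.6 CPM in the cortical one, against 18.4 CPM in both amyloid beta controls. The neuron marker Rbfox3 was at 261 and 280.5 CPM untreated and at 0.174 and 0.461 CPM in the amyloid beta controls, while Stmn2 was at 336 and 286 CPM and at 235 and 195 CPM. Oligodendrocyte markers followed the same order, with medians of 481 and 400.0 CPM untreated and 17.6 and 0.535 CPM in the amyloid beta controls, and 6 of 6 were lower at least 2-fold in both regions. Microglia markers (medians of 51.7 and 55.3 CPM untreated, 1.97 and 2.297 in the amyloid beta controls) and endothelial markers (22.9 and 26.0 CPM, then 0.549 and 0.823) followed that order too. Of the microglia markers 6 of 6 in hippocampal and 5 of 6 in cortical glia were at least 2-fold lower, and of the endothelial markers 5 of 5 in both. Whether the untreated libraries are cultured glia or other material cannot be told from the labels, so amyloid beta and the cell makeup of these libraries cannot be told apart in any comparison with them. Below, lower with amyloid beta means lower in the amyloid beta control than in the untreated library. Astrocyte markers, which define the labelled cell type, were present in all 6 culture libraries, with medians between 319.7 and 1373 CPM. These medians were 448 and 319.7 CPM untreated and 753 and 1373 CPM in the amyloid beta controls. In each region 3 of 7 astrocyte markers were at least 2-fold higher with amyloid beta (backgrounds 21% and 19.8%). In each region 1 of 7, Slc1a2, was at least 2-fold lower (backgrounds 25.6% and 25.4%).

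Promoter sequences were taken from RefSeq (build GRCm38.p6), which gave 44 promoters for 30 members, each from 250 bases before to 50 bases after a start site. Camk2a, Shank1, Shank2, Snap25 and Vamp2 had no entry in the promoter table. Both strands were searched for 4 motifs: the cAMP response element TGACGTCA, the element AAAGGTCA that Nurr1 is known to bind, the forkhead core TGTTTAC, and the element RE1, bound by the repressor of neuronal genes REST. RE1 was searched as the parts TTCAGCACC and GGACAG with 2 bases between them and at most 3 mismatches. The following 4 are shown because they are the members' promoters that hold a match to RE1, with the matches in capitals.
Syn1: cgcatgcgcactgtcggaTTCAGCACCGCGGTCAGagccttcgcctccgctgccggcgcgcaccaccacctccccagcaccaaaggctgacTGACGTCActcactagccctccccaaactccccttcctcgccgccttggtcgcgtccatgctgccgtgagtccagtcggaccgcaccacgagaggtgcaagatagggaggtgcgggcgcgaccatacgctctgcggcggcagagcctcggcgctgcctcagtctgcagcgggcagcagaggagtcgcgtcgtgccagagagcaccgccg
Rph3a: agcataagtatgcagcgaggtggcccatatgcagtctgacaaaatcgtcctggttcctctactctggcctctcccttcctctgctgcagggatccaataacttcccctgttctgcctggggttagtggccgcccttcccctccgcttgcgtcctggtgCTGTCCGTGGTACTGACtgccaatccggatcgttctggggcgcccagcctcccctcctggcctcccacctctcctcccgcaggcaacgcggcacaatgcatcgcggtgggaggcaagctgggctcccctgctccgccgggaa
Nlgn1: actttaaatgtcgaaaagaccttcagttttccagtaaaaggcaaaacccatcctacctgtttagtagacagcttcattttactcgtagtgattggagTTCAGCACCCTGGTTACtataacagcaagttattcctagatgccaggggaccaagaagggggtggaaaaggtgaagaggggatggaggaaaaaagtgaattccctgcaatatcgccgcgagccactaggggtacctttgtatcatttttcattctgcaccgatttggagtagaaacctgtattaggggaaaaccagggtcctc
Unc13a: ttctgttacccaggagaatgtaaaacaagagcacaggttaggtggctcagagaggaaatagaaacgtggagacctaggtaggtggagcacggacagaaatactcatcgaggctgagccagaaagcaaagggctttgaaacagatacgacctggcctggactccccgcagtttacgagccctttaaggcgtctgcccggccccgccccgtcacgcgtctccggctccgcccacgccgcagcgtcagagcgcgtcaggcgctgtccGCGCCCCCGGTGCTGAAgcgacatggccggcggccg
In the Syn1 promoter (chrX:20920869-20921168, minus strand) the RE1 match covers bases 19 to 35 with 1 mismatch, and the second run of capitals, bases 92 to 99, is a cAMP response element. The Rph3a promoter (chr5:121009489-121009788, minus strand) holds its match with 2 mismatches. The Nlgn1 promoter (chr3:26153937-26154236, minus strand) and the Unc13a promoter (chr8:71671708-71672007, minus strand) hold theirs with 3 mismatches, and that of Unc13a lies past the start site. At most 3 mismatches were met in 4 of the 44 member promoters (9.09%) and in 1.17% of all 32851 promoters in the table, and at most 1 mismatch in 0.0578% of all. The cAMP response element was in 1 member promoter, that of Syn1, and in 1.79% of all. Neither the Nurr1 element (1.51% of all promoters) nor the forkhead core (3.65% of all) was found in a member promoter. A match describes letters in this window and is not a measured binding site.

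In the 3xTg hippocampus, N+F against control AAV9 gave no member a change past the threshold of an adjusted p of 0.05 in edgeR's quasi-likelihood test with Benjamini-Hochberg adjustment. All 35 members passed the filter on low counts, and 0 were called, where the test called 0.11% of the 15523 genes it covered (0.103% lower and 0.00644% higher). The lowest adjusted p among the members was 0.252, for Dnm1. Before adjustment 5 members were under p 0.05 (background 8.46%): Dnm1, Shank2, Shank1 and Bsn on the lower side and Cplx2 on the higher. In the same 5 members the 3 control and the 4 N+F libraries did not overlap, 4 lower (background 4.19%) and 1 higher (background 3.92%, and 8.11% for either). The fitted log2 fold change was below 0 in 25 of the 35 members (background 50.8%), with a median of -0.15 beside -0.0044 for all genes tested. That median was -0.06 without N+F library 1 and -0.08 without control library 3, so its size leaned on these libraries, and 10 members were under p 0.05 before adjustment without N+F library 4. Fewer cells of a type and less RNA per cell cannot be told apart in such tissue libraries.

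Endocytosis genes had the lowest median of the roles, -0.39. Dnm1 encodes the dynamin that cuts vesicles from the presynaptic membrane. It stood at 503, 479.6 and 511 CPM scaled by edgeR's TMM factors in the controls and at 295, 342, 356 and 393 in the N+F libraries. Every N+F library lay below every control library, and the fitted log2 fold change was -0.52 ± 0.13 (SE, edgeR adjusted p 0.252). With DESeq2 the estimate was -0.52 ± 0.13 with an adjusted p of 0.0164, which made Dnm1 the 1 member called lower by that tool, where DESeq2 called 0.516% of 14912 genes lower and 0.456% higher. Over all alternatives its adjusted p ran from 0.0164 to 0.509 and its log2 fold change from -0.59 to -0.45. Amph, which encodes the dynamin partner amphiphysin, had a log2 fold change of -0.27 ± 0.17 and overlapping groups.

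Active zone genes came next, with a median of -0.29 and 4 of 4 members below 0. Bsn encodes bassoon, a giant scaffold of the active zone. It stood at 92.4, 79.9 and 88.4 TMM-scaled CPM in the controls and at 57.3, 67.5, 68.7 and 69.4 with N+F, without overlap (log2 fold change -0.40 ± 0.12, adjusted p 0.308). Pclo, which encodes its relative piccolo, stood at 118, 87.1 and 124 in the controls and at 101, 68.4, 93.9 and 85.2 with N+F (-0.33 ± 0.16, adjusted p 0.633), and the groups overlapped. Rims1, a scaffold that ties vesicles to calcium channels, and Unc13a, the main vesicle primer, were at -0.25 ± 0.17 and -0.16 ± 0.17.

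The SNARE group held both signs. Cplx2 encodes complexin, a small protein that clamps and triggers SNARE complexes. It stood at 4003, 4511 and 3768 TMM-scaled CPM in the controls and at 4996, 5467, 6759 and 4537 with N+F, with no overlap (0.41 ± 0.18, adjusted p 0.576). Its relative Cplx1 lay on the other side, at 125, 149.5 and 164 in the controls and at 104, 116, 124 and 134 with N+F (-0.29 ± 0.13, adjusted p 0.603). Nsf, the ATPase that takes spent SNARE complexes apart, stood at 301, 344 and 369 in the controls and at 213, 281, 271 and 325 with N+F (-0.31 ± 0.15, adjusted p 0.636). Napb, its adaptor, stood at 142, 133 and 145 in the controls and at 88.0, 124, 101 and 134 with N+F (-0.32 ± 0.15, adjusted p 0.597). In these 3 the lowest N+F library was library 1 and the groups overlapped. The SNAREs themselves were close to 0: Snap25 was at -0.03 ± 0.17, Vamp2 at 0.06 ± 0.14 and Stx1a at -0.10 ± 0.21.

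Among the vesicle membrane proteins the member of largest fitted change in either direction was Slc17a7, the transporter that fills vesicles with glutamate. It stood at 299, 491 and 404 TMM-scaled CPM in the controls and at 108, 256, 367 and 299 with N+F, so that the groups overlapped (-0.63 ± 0.31, adjusted p 0.649). N+F library 1 was the lowest by a wide margin, and over the alternatives the log2 fold change of Slc17a7 ran from -0.85 to -0.37. Beside it, 7 markers of excitatory hippocampal neurons had a median log2 fold change of -0.84, and 3 of them (Neurod6, Fibcd1 and Spink8) fell with an adjusted p under the threshold. The summed level of these 7 markers was 327 to 432 in the controls and 333 to 474 with N+F. Markers of inhibitory neurons (median 0.43, 6 of 7 above 0) and of striatal neurons (0.98, 7 of 7 above 0) lay mostly on the higher side with none past the threshold. Pvalb was the inhibitory marker below 0, at -0.30. The striatal sum ran from 288 to 2030 in the controls and from 1416 to 2495 with N+F. The 8 neuron markers had a median of 0.0063, with sums of 1972 to 2091 in the controls and 1840 to 2173 with N+F. Endothelial markers (median -0.78, 5 of 5 below 0, sums of 27.6 to 42.0 in the controls and 17.1 to 22.9 with N+F) and mural and fibroblast markers (median -0.999, 6 of 6 below 0, sums of 57.3 to 351 and 38.9 to 57.4) lay on the lower side, with Col1a1 past the threshold (adjusted p 0.0375). The part of these shifts in the values of Slc17a7 and the other members was not tested. The other 6 vesicle membrane genes lay between -0.23 (Sv2b, a vesicle glycoprotein) and 0.06 (Syp, the abundant vesicle protein synaptophysin), with Syt1, the calcium sensor of release, at 0.04 ± 0.15.

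In the postsynaptic density the control and N+F libraries separated in Shank2 and Shank1, both scaffolds, and overlapped in the other 4 genes. Shank2 stood at 28.3, 25.0 and 27.3 TMM-scaled CPM in the controls and at 15.7, 14.6, 19.8 and 21.1 with N+F (-0.59 ± 0.16, adjusted p 0.272). Shank1 stood at 134, 107 and 110.3 in the controls and at 89.9, 66.1, 104 and 89.5 with N+F (-0.42 ± 0.16, adjusted p 0.459). In both genes every N+F library was below every control. Shank3 was at 0.04 ± 0.14, Homer1, which bridges Shank proteins to metabotropic glutamate receptors, at 0.05 ± 0.18, Nlgn1, an adhesion protein that binds neurexins across the cleft, at 0.02 ± 0.16, and Dlg4, the central receptor scaffold, at 0.12 ± 0.17. The calcium signalling genes lay between -0.16 (Camk2b) and 0.22 (Vsnl1, a neuronal calcium sensor), the 4 tethering genes between -0.17 (Syn1, a synapsin) and -0.02 (Rab3a, a vesicle GTPase), and Sncb, beta-synuclein, at -0.04 ± 0.17.

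**Figure D1:**
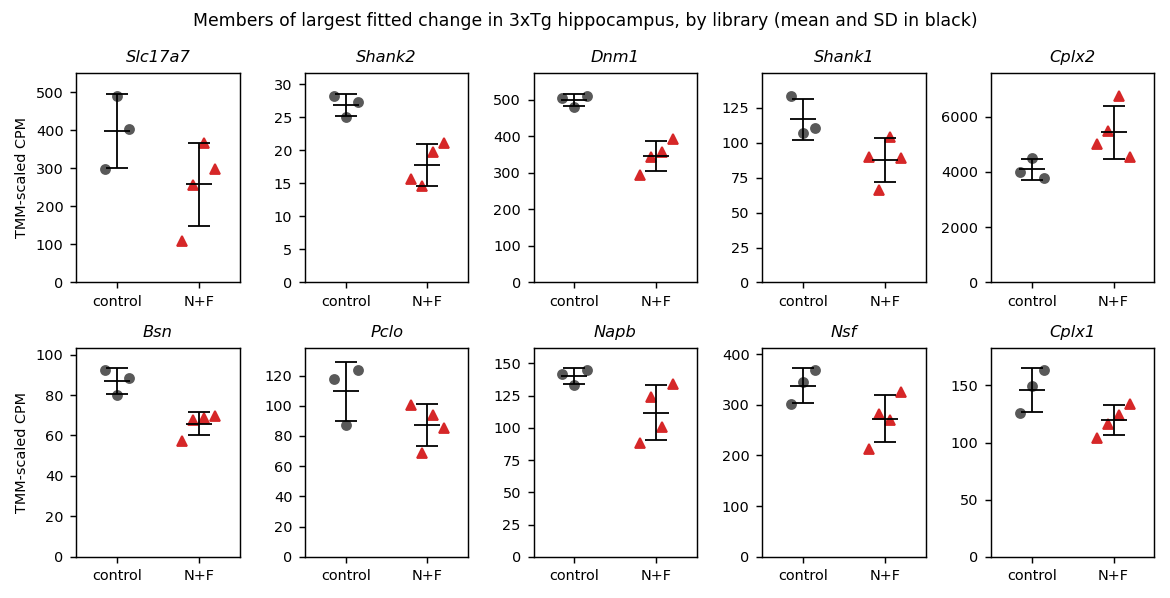
TMM-scaled CPM of the 10 members of largest fitted change in each hippocampus library, control AAV9 (grey circles, n = 3) and N+F (red triangles, n = 4), with mean and SD in black and axes that start at 0. In Dnm1, Shank2, Shank1, Bsn and Cplx2 the groups do not overlap, and in the other panels they do.

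**Figure D2:**
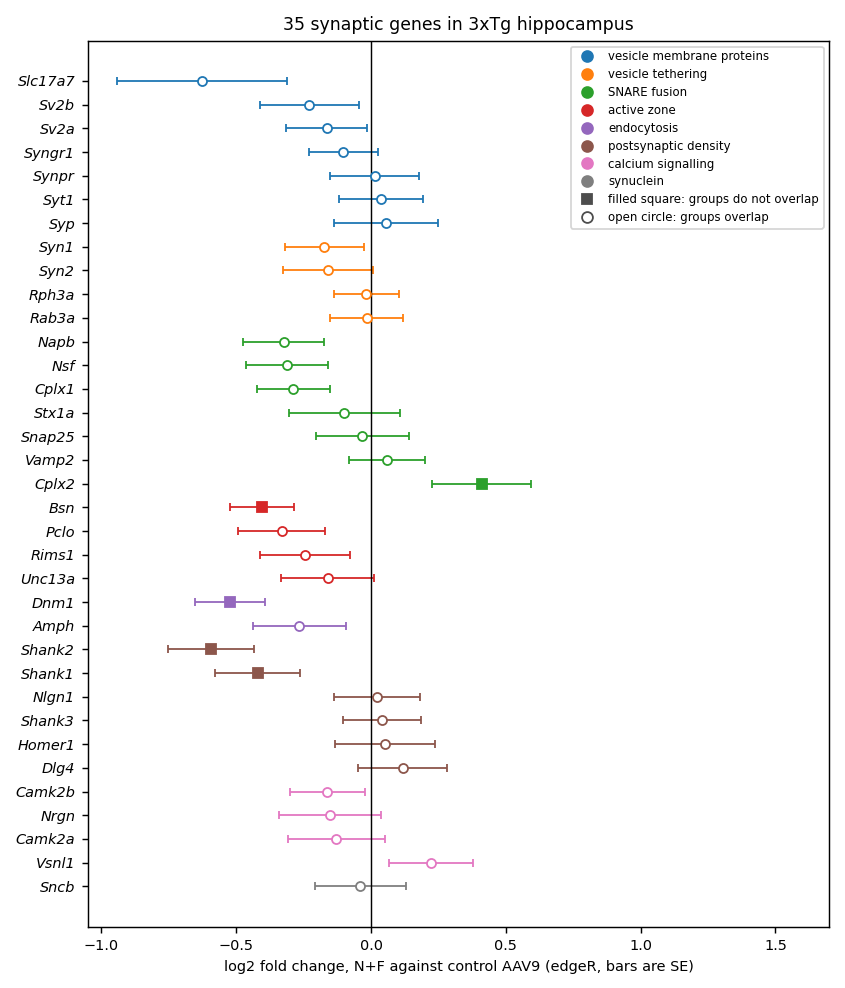
Fitted log2 fold change (x axis, N+F against control AAV9, bars are edgeR standard errors) of all 35 members, coloured by role. Filled squares mark the 5 members whose groups do not overlap, 4 below and 1 above 0, and no member passed the adjusted p of 0.05.

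Transcript levels per length separated the members by over 2 orders of magnitude in the control hippocampus. Divided by the median length of the gene's protein-coding transcripts, Snap25 led with 1759 ± 240.0 CPM per kb (SD, n = 3), followed by Nrgn, the calmodulin-binding neurogranin, at 1241 ± 215. The lowest Snap25 library (1486) was above the highest of Nrgn (1438). Cplx2 (831 ± 77.0) and Camk2a (814 ± 93.0), a calcium-dependent kinase of the postsynaptic density, did not differ beyond their spread. At the lower end stood Bsn (5.45 ± 0.40), Nlgn1 (4.78 ± 0.56) and Shank2 (3.39 ± 0.21).

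Other genes of the pathway were read from the same fit. Of 60 further synaptic genes, listed by role and not by how they moved here, all 60 were tested, 0 were called, and 37 were below 0, with a median log2 fold change of -0.08. Before adjustment 6 were under p 0.05 on the lower side (background 4.36%) and 2 on the higher (background 4.1%). Among the largest on the lower side were Ppfia2, an active zone scaffold partner (-0.53 ± 0.13, adjusted p 0.255), Kalrn, a spine regulator (-0.45 ± 0.13, adjusted p 0.308), and Synj1, which uncoats endocytosed vesicles (-0.39 ± 0.13, adjusted p 0.376). On the higher side were Slc32a1, the vesicular transporter for GABA (0.55 ± 0.18, adjusted p 0.373), and Rab3c, a relative of Rab3a (0.45 ± 0.18, adjusted p 0.502).

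In the cultures all 35 members were at least 2-fold lower in the amyloid beta control than in the untreated library, in hippocampal glia (background 25.6% of 14890 genes), in cortical glia (background 25.4% of 14786), and so in both regions (background 21.5% of 14516, and 16.6% higher). Differences are given as the log2 ratio of CPM + 1, which understates the change of low genes, and each rests on 1 library against 1. The median log2 ratio of the members was -5.67 in hippocampal and -5.58 in cortical glia, beside -0.03 and -0.01 for all genes. The summed level of the 35 genes was 28296 CPM untreated and 739 CPM in the amyloid beta control of hippocampal glia, and 27792 and 769 CPM in the cortical pair. The neuron markers given above differed in the same direction between the same libraries, 7 of 8 of them by at least 2-fold in each region, and their part in the members' values was not tested. The comparison cannot be made without the untreated libraries.

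The members with the largest differences came from both sides of the synapse. Snap25 was at 2093 CPM untreated, 0.509 in the amyloid beta control and 0.546 with N+F in hippocampal glia, and at 2709, 1.42 and 1.09 CPM in cortical glia, a level 4116-fold and 1913-fold lower with amyloid beta. Nrgn was at 1111 CPM, 0.147 CPM and 0 counts in hippocampal and at 1468, 0.0823 and 1.41 CPM in cortical glia, 7547-fold and 17832-fold lower with amyloid beta, where its level rests on 11 and 5 counts. Slc17a7 was at 1219, 1.49 and 1.07 CPM and at 1019, 0.412 and 4.09 CPM. All 3 were among the members of high level in the untreated libraries and at a few CPM or less in the other 4. Vsnl1 was at 489 CPM, 0 counts and 0.447 CPM in hippocampal glia, at least 12174-fold lower with amyloid beta when the 0 is set to 3 counts (0.0402 CPM). In cortical glia Vsnl1 was at 812, 0.132 and 0.141 CPM. Syt1 was at 1561, 2.82 and 3.36 CPM in hippocampal and at 1651, 1.83 and 1.24 CPM in cortical glia. Sv2b was at 479.8, 0.0803 and 0.943 CPM and at 469 CPM, 0 counts and 0.294 CPM, at least 9486-fold lower with amyloid beta in cortical glia. These 6 genes had the lowest mean log2 ratios, and in each of them both amyloid beta controls lay far under both untreated libraries.

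At the other end stood genes that remained well above 10 CPM in the amyloid beta controls. Nlgn1 was the least lowered member, at 75.3, 24.9 and 28.5 CPM in hippocampal and at 72.2, 25.0 and 32.8 CPM in cortical glia, 3.02-fold and 2.89-fold lower with amyloid beta. Vamp2, the vesicle SNARE, was at 1099, 149.9 and 139.8 CPM and at 1109.8, 201 and 102 CPM. Homer1 was at 88.9, 15.2 and 17.5 CPM and at 151, 17.8 and 12.1 CPM. The largest difference among these 3 was that of Homer1 in cortical glia, 8.47-fold. Dlg4 was at 898, 138 and 111 CPM and at 968, 105 and 134 CPM. Shank3 was at 314, 25.1 and 39.8 CPM and at 266, 22.1 and 13.1 CPM, and Syngr1, a vesicle protein, at 453, 45.2 and 43.96 CPM and at 551, 32.4 and 52.3 CPM. By role the median log2 ratio was least low in the postsynaptic density (-3.14 and -3.36) and lowest in the calcium signalling genes (-8.18 and -8.83) and the vesicle membrane proteins (-8.20 and -7.15). The 4 active zone genes lay close together, between -7.79 (Bsn) and -6.36 (Unc13a) in hippocampal and between -7.28 (Bsn) and -5.58 (Pclo) in cortical glia. The 7 SNARE genes were spread from -10.44 and -10.13 (Snap25) to -2.87 and -2.46 (Vamp2), and the 4 tethering genes from -8.54 and -8.98 (Rph3a) to -4.17 and -3.20 (Syn2). The 4 members whose promoters are printed above did not share a size of difference: Rph3a, which encodes a Rab3 effector on vesicles, was at -8.54 and -8.98, Unc13a at -6.36 and -5.84, Syn1 at -5.98 and -4.88, and Nlgn1 at -1.56 and -1.49.

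**Figure D3:**
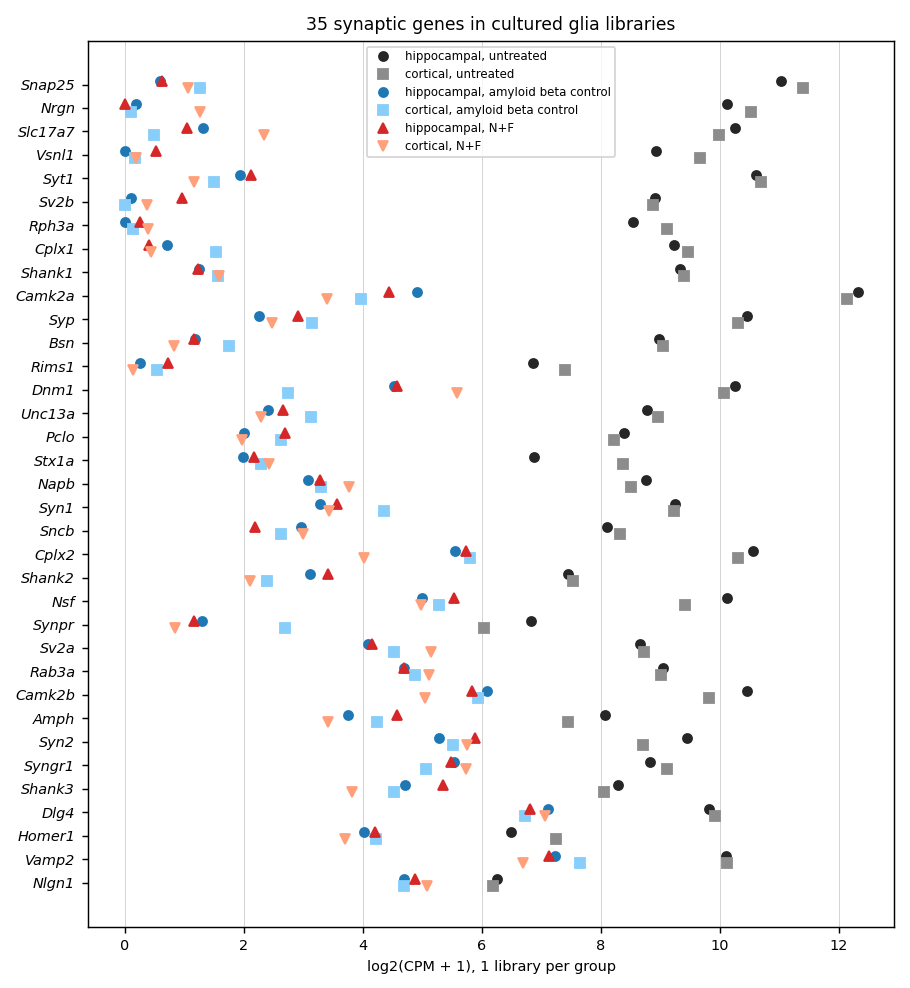
Level of each of the 35 members in the 6 culture libraries as log2(CPM + 1), 1 point per library, ordered from the lowest to the highest mean log2 ratio of amyloid beta control over untreated. For every member both untreated libraries (black and grey) lie to the right of the other 4, from Snap25 at the top to Nlgn1 at the bottom.

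Per length, a small group of members made up most of what was left in the amyloid beta controls. Ordered by the mean of both regions, Vamp2 led with 90.3 CPM per kb in hippocampal and 121 in cortical glia, followed by Dlg4 (48.7 and 37.1), Camk2b (34.7 and 31.5), Rab3a (17.7 and 20.2), Syngr1 (18.1 and 13.0) and Camk2a (16.7 and 8.45). In the untreated libraries the order was another: Camk2a stood first at 2949 and 2616 CPM per kb, then Snap25 (1338 and 1731) and Nrgn (765 and 1011). As plain CPM, Camk2a was at 5114, 29.0 and 20.7 in hippocampal and at 4536, 14.7 and 9.61 in cortical glia. Rab3a was at 530.1, 24.9 and 25.0 CPM and at 515, 28.5 and 33.8 CPM, and Camk2b at 1412, 66.8 and 56.3 CPM and at 907, 60.6 and 32.1 CPM. Snap25, at the head of the list in tissue, was at 0.325 and 0.905 CPM per kb in the amyloid beta controls.

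Widely expressed relatives of the members were lowered less than they were, or were higher. In 12 of 12 pairs of a member and a relative that works in many cell types, the relative was less lowered than the member in both regions. That count alone sets little apart. All 35 members were at least 2-fold lower, where 25.6% and 25.4% of all genes were, so most genes were less lowered than a member. Of the 12 relatives, 5 were at least 2-fold higher with amyloid beta in hippocampal glia (background 21%) and 0 lower. In cortical glia 6 were at least 2-fold higher (background 19.8%) and 1, Camk2g, was lower. Their median log2 ratio was 0.66 in hippocampal and 0.92 in cortical glia, with a range from -0.95 to 2.23 and from -1.39 to 2.47. Snap23, which does the work of Snap25 outside neurons, went from 13.6 to 36.1 CPM and from 13.3 to 50.6 CPM. Vamp3, a relative of Vamp2, went from 38.1 to 112 CPM and from 42.5 to 107 CPM, and Dnm2, the dynamin of all tissues, from 73.0 to 185 CPM and from 62.4 to 184 CPM. In these pairs the member was lower and the relative higher in both regions. Syngr2 had the highest ratios, from 13.9 to 68.9 CPM and from 10.6 to 63.5 CPM. Napa, the relative of Napb, was lower in both, from 217 to 112 CPM and from 224 to 123 CPM, and so were Camk2g (-0.80 and -1.39) and Rab3d (-0.42 and -0.83). In tissue, where no relative was called either, the 12 genes had log2 fold changes between -0.56 (Homer3) and 0.37 (Sypl).

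**Figure D4:**
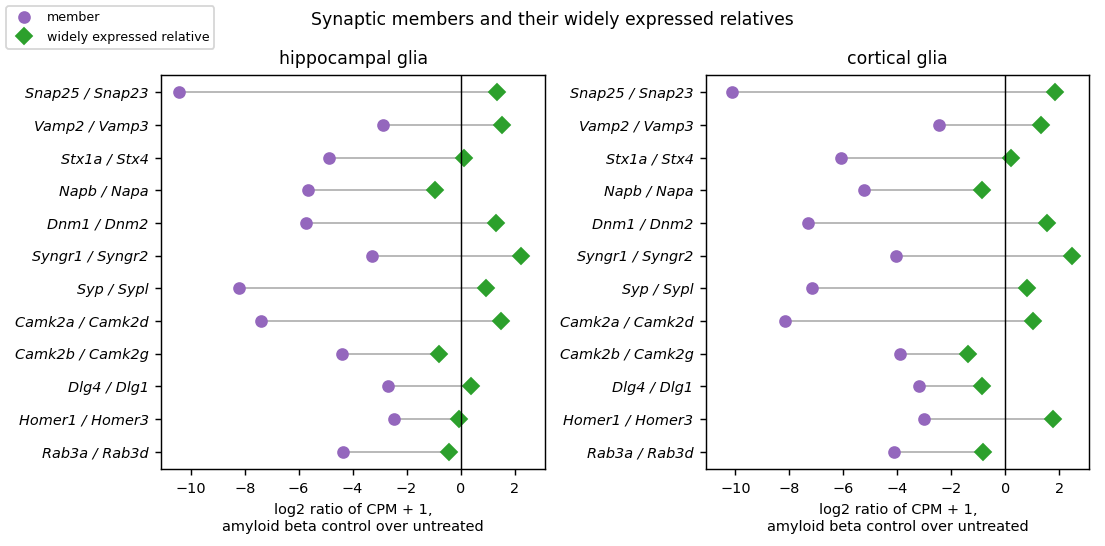
Log2 ratio of CPM + 1 between the amyloid beta control and the untreated library (x axis) for 12 members (circles) and their widely expressed relatives (diamonds), joined by a line, with 1 library per group. The relative lies to the right of the member in all 12 pairs in both regions, and 8 of the 12 relatives lie above 0 in each.

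Of the 60 other synaptic genes, 51 in hippocampal and 52 in cortical glia were at least 2-fold lower with amyloid beta (backgrounds 25.6% and 25.4%) and 0 were higher (backgrounds 21% and 19.8%), with medians of -3.61 and -4.14. By the mean of both regions the lowest were Rab3c (-8.96 and -8.04), Dlgap3, a postsynaptic scaffold (-7.77 and -7.56), Rimbp2, an active zone linker (-7.52 and -6.89), and Sh3gl2, an endophilin of vesicle endocytosis (-7.58 and -6.83). Erc1, a relative of active zone proteins that many cells use, was the highest at 0.94 and 0.83, and Syt12 followed at 0.69 and 0.57.

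N+F against the amyloid beta control, in contrast, gave few members a 2-fold difference. The comparison shares its amyloid beta control libraries with the preceding one. In hippocampal glia 28 members reached 1 CPM in a library of the pair, and 0 were at least 2-fold higher (background 5.6%) or lower (background 0.767%). The log2 ratios of these 28 ran from -0.76 (Sncb) to 0.82 (Amph) with a median of 0.19, beside 0.12 for all genes. In cortical glia 31 members were compared, and 3 were at least 2-fold higher (background 12.9%) and 3 lower (background 15.1%), with a median of -0.30 for the 31 (-0.29 over all 35 members) beside -0.16 for all genes. No member passed 2-fold in the same direction in both regions (background 2.07% higher and 0.119% lower), and 19 of all 35 members had ratios of opposite sign in the 2 regions. The hippocampal and cortical N+F libraries also differed in Nr4a2 (488 and 36.9 CPM) and Foxa2 (140 and 13.5 CPM). The part of that difference in the members' ratios was not tested.

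The 6 members that passed 2-fold in cortical glia came from several roles. Dnm1 was at 5.73 CPM in the amyloid beta control and 47.0 with N+F, 8.21-fold higher, and at 22.0 and 23.0 CPM in the hippocampal pair. Slc17a7 went from 0.412 to 4.09 CPM (log2 ratio 1.85) and Nrgn from 0.0823 to 1.41 CPM (1.15). Cplx2 was lower, at 54.8 and 15.3 CPM, 3.58-fold, and at 45.7 and 52.3 CPM in the hippocampal pair. Cplx1 went from 1.89 to 0.358 CPM (-1.09). Synpr, the vesicle protein synaptoporin, went from 5.48 to 0.805 CPM (-1.84) as the sum of its lines, but its line 1 went from 0 counts to 0.805 CPM and its line 2 from 5.48 CPM to 0 counts. With the largest line in place of the sum Synpr was on the higher side (0.92). Of these 6 members, Cplx1 had the same sign in the cortical pair as in the tissue fit and the other 5 had the reverse, and none of the 6 passed the edgeR threshold in tissue. The tissue values of Synpr (0.01 ± 0.16) and Nrgn (-0.15 ± 0.19) lay within their standard error of 0, so their tissue sign gives no direction. The cortical N+F library also differed from its control in markers of other cells. The median of 6 oligodendrocyte markers was 0.535 CPM in the control and 53.6 with N+F, with 5 of 6 at least 2-fold higher and Mbp at 0.873 and 179.5 CPM. The median of 6 mural and fibroblast markers was 44.8 and 499 CPM, with 4 of 6 at least 2-fold higher and Col1a1 at 47.0 and 2894 CPM. In the hippocampal pair these medians were 17.6 and 16.8 CPM and 76.5 and 76.8 CPM. The neuron marker medians were 18.4 and 11.6 CPM in the cortical pair and 18.4 and 11.9 CPM in the hippocampal pair. These medians hid movement both ways. Of 6 neuron markers compared in cortical glia, 2 were at least 2-fold higher with N+F and 1 lower, and of 6 in hippocampal glia 2 were higher and 0 lower. The summed neuron markers were at 379 and 480 CPM in the cortical pair and at 439 and 447 CPM in the hippocampal pair. The part of these cells, neurons included, in the cortical values was not tested.

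Among the other synaptic genes, 7 were at least 2-fold higher with N+F and 1 lower of 45 compared in hippocampal glia (backgrounds 5.6% and 0.767%), and 9 higher and 6 lower of 46 in cortical glia (backgrounds 12.9% and 15.1%). Cnksr2, a postsynaptic scaffold, was higher in both regions, from 1.02 to 8.14 CPM and from 0.148 to 2.41 CPM, and so was Nrxn3, a neurexin, from 2.48 to 6.25 CPM and from 5.68 to 13.9 CPM. Syt12 was lower in both, from 50.6 to 24.7 CPM and from 64.3 to 7.95 CPM.

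The culture table lists 20 of the 35 members on more than 1 line, 69 lines in all and up to 6 for a gene (Rims1), and does not say what sets the lines of a symbol apart. Read line by line, 62 of 67 lines compared were at least 2-fold lower with amyloid beta in both regions (background 22.3% of 21032 lines). With N+F, 2 of 44 lines were at least 2-fold lower in both regions (background 1.05% of 19228 lines) and 1 was higher (background 2.66%). Both lower lines belong to Camk2b, the beta subunit of the kinase. Line 3 of Camk2b was at 1382, 10.1 and 0.149 CPM in hippocampal and at 656, 13.4 and 0.473 CPM in cortical glia, in the order untreated, amyloid beta control and N+F. It was 68.0-fold and 28.3-fold lower with N+F, where 9 and 37 counts were left. Line 2 was at 13.4, 26.7 and 12.6 CPM and at 46.8, 29.8 and 8.21 CPM. Line 1 did not share that order, at 16.6, 30.0 and 43.6 CPM and at 204, 17.4 and 23.5 CPM, so the summed level of Camk2b was 1.19-fold and 1.88-fold lower with N+F and passed 2-fold in neither region. The higher line was line 2 of Shank2, from 0.174 to 2.33 CPM and from 0.0659 to 1.55 CPM. Line 1 of Syngr1 was among the lines not lower with amyloid beta, at 3.42 and 7.37 CPM and at 4.85 and 8.55 CPM, while line 2 of the same gene was at 449.7 and 37.8 CPM and at 546 and 23.9 CPM.

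**Figure D5:**
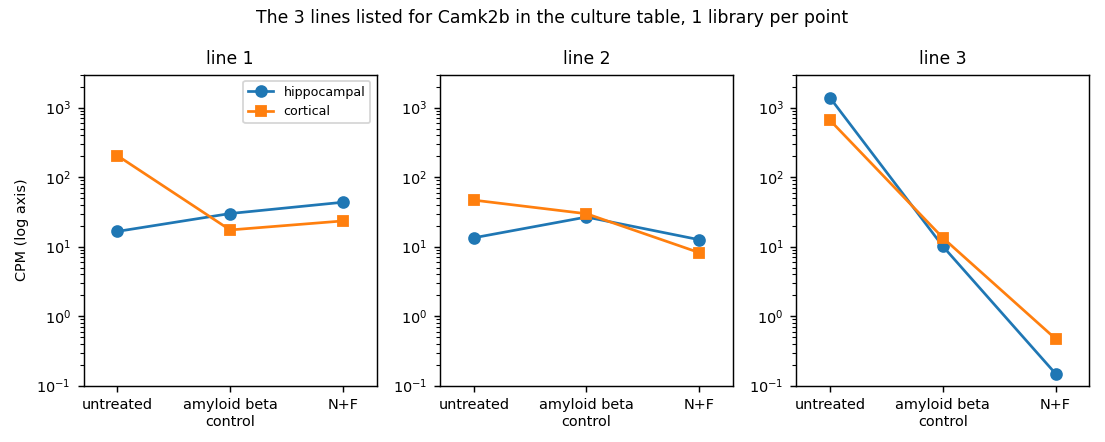
CPM (log axis) of the 3 lines listed for Camk2b in the hippocampal (blue circles) and cortical (orange squares) glia libraries, 1 library per point. Line 3 holds most of the untreated level and is lowest with N+F in both regions, while line 1 is slightly higher with N+F than in the amyloid beta control.

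Few members differed by 2-fold between the hippocampal and the cortical library of 1 condition. Untreated, 1 of 35 was at least 2-fold lower in hippocampal glia (background 2.3%), the SNARE Stx1a at 116 against 331 CPM, and 0 were higher (background 3.17%). In the amyloid beta controls 30 members were compared, with Dnm1 higher in hippocampal glia (background 4.17%) at 22.0 against 5.73 CPM. In these controls Synpr and Syn1 were lower (background 2.13%), at 1.47 against 5.48 and at 8.73 against 19.4 CPM. With N+F 5 members were higher in hippocampal glia (background 17.3%), namely Camk2a, Cplx2, Shank2, Shank3 and Amph, and 3 were lower (background 7.06%), namely Dnm1, Slc17a7 and Nrgn. Dnm1 was thus on opposite sides in these conditions, at 22.0 against 5.73 CPM in the amyloid beta controls and at 23.0 against 47.0 CPM with N+F.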

How the data were processed

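The authors deposited gene counts for 7 tissue and 6 culture libraries, made from total RNA with a SMARTer mRNA kit, per the labels' protocols. The submitters' processing notes name TopHat, HISAT2, edgeR and hg19 without a role, a version or a mouse build, so no gene coordinates are given beside those of RefSeq promoters. No column of values was left unused, and no line lacked a name. Lines of a symbol were added (44 repeats in tissue, 12238 in culture).

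Tissue counts were tested in edgeR 4.0.16 (R 4.3.3) with filterByExpr, TMM (factors 0.895 to 1.11) and the quasi-likelihood test, Benjamini-Hochberg over 15523 genes. The biological coefficient of variation was 0.206, and the fold change errors follow from the F statistic. On simulated data for this comparison (15520 genes, 200 changed by a log2 of 2) 99% of changed genes were called, and 5.714% of 210 calls were false. The members' fitted changes were smaller, the largest being -0.63 for Slc17a7. The simulation therefore does not show what share of changes of the members' size would be called. DESeq2 1.42.0 was an alternative. Replicates varied beyond counting noise, with a chi-square of 15 to 56.1 per gene. The replicate numbers of the tissue groups do not pair the libraries (r -0.001, -0.083 and 0.125).

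Culture counts were scaled to CPM of the library total and compared as log2 ratios with a pseudocount of 1 CPM. A gene counted as higher or lower at 2-fold with at least 1 CPM in a library of the pair. A gene at 0 was set to 3 counts for a fold. Lengths per gene are medians of GENCODE vM21 protein-coding transcripts. The symbol Stx4 is listed as Stx4a.

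The members and lists were chosen with earlier results of these data known. All members could be named by role. Values by library are given for the 10 largest tissue changes, and in culture for the 6 lowest and 6 highest mean ratios with amyloid beta, the 6 highest levels per length, and any member 2-fold changed the same way in both regions with N+F. Values of other members, lines and promoters were chosen after they were seen.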

Additional observations from a re-analysis of the deposited data

Results flagged for a closer look

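With 35 groups of 4 N+F libraries examined, 2 members had 1 library farther from the other 3 than Dixon's limit allows, and chance flags about 1 group in 20. Snap25 was at 2136 TMM-scaled CPM in N+F library 1 and at 2899, 2888 and 2845 in the others, a gap of 0.929 of the group's range. Bsn was at 57.3 in N+F library 1, with a gap of 0.844 of the range. N+F library 1 was also the library with the lowest median of the members, -0.31 on the log2 scale from the control mean, where the other 6 libraries lay between -0.09 and 0.08.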

How the results depend on the processing

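Of the main values and counts, 123 kept their direction and size under an alternative and 19 moved. In tissue the count of members called stayed at 0 under every edgeR alternative and was 1 lower with DESeq2 (Dnm1, -0.52). Members under p 0.05 before adjustment numbered 5, and 4 to 10 when a library was left out (10 without N+F library 4). With a replicate block they numbered 12, although the numbers do not pair the libraries, and no gene of the whole table was then called. Over all genes, edgeR called 17, 29 without the low count filter, 145 with DESeq2, and 0 to 29 with a library left out: 29, 3 and 1 without control library 1, 2 or 3 and 0 without any 1 of the N+F libraries. In culture a pseudocount of 0.1 CPM moved the amyloid beta medians to -5.83 and -5.80 and the regional counts in the amyloid beta controls to 2 higher and 5 lower. Taking the largest line of a symbol in place of the sum moved those medians to -6.35 and -5.78, the untreated regional counts to 2 higher and 3 lower, the higher count in the amyloid beta controls to 2, the N+F median in cortical glia to 0, and the N+F lower count to 1 in hippocampal glia and to 1 in both regions. It reversed Synpr with N+F in cortical glia (0.92 in place of -1.84). TMM scaling gave 3 higher and 5 lower between regions with N+F. Single lines, an alternative chosen after seeing the data, gave 1 member lower and 1 higher in both regions with N+F. The cause of these shifts was not tested. A culture level under 3 counts (0.0383 to 0.0575 CPM) is not told from 0, and these limits cover counting error only.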
